A study of Caenorhabditis elegans with 15 samples.

Results

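The col genes of Caenorhabditis elegans, the largest naming class of its cuticle collagens, were followed across libraries of dissected intestines. Members were all genes of the deposited transcript map whose name begins with col-. There were 159 of them among 46904 genes, 2 of them pseudogenes.

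Cuticle collagens are short secreted collagens that are trimmed, assembled into trimers and crosslinked into the exoskeleton of the worm. They are made mainly by the epidermis (hypodermis), in waves of expression that accompany each moult, and some are made only at particular larval stages or in adults. The intestine is not known as a main source of them, and an intestine dissected from a worm can carry fragments of other tissues.

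RNA was measured in 3 groups of 5 libraries, each from 20 intestines of worms that were 5 days old and had been fed OP50 bacteria. A first group was wild type, and a second carried gas-1(fc21), a mutant allele of a complex I gene of the respiratory chain. The last group carried the same allele together with overexpression of the carboxylesterase gene cest-2.2 (labelled cest-2.2 O/E, shortened to OE). All OE worms therefore also carry fc21, and the sources used here do not give the promoter or the number of lines behind the overexpression. Levels of single genes are given as TPM, which corrects for transcript length, or as CPM (counts scaled to a common library total with TMM factors), which does not.

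Total estimated counts per library ran from 12182697 to 45896053. The deepest libraries were OE replicate 5 and wild type replicate 3 (40045140), and no other library exceeded 22357141. For wild type, gas-1 and OE in that order, the gas-1 transcript measured 67.8 ± 14.4, 123.6 ± 20.8 and 121 ± 28.1 CPM and the cest-2.2 transcript 42.2 ± 17.4, 56.1 ± 24.2 and 121 ± 42.7 CPM (mean ± SD of 5 libraries). All 19 intestine markers found in the map had counts, and together they took 100860 to 589980 CPM per library. Of 19 hypodermis markers, 4 (wrt-8, sdf-9, rol-6 and fip-1) had 0 counts in every library, and the list summed to 39.3 to 105 CPM per library. The 12 body wall muscle markers summed to 186 to 3398 CPM.

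Most col genes were near or below detection, and a small number carried almost all of the signal. Of the 159 genes, 25 had 0 counts in all 15 libraries, 87 had under 30 counts over all libraries together, and 24 had counts in every library. A filter on low counts left 41 genes for testing and 118 untested. The tested genes held at least 97.4% of the summed col TPM in every library. The single most abundant gene, col-140, held 20.6% of the summed col TPM over all libraries, the leading 3 held 39.9% and the leading 20 held 97.1%. Those leading 3 were col-140 (chromosome V, 5835855 to 5836834, WBcel235), col-184 (X, 13469455 to 13470409) and col-80 (II, 10707201 to 10708287).

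The tested genes were spread over all 6 chromosomes but unevenly. On chromosome I, 1 of 22 col genes was tested, against 12 of 42 on chromosome IV, 10 of 31 on V, 7 of 24 on II, 6 of 12 on III and 5 of 28 on X. Tested and untested genes had similar gene models, with a median of 2 exons in both and a median longest transcript of 1039 and 987 bases. By the fifth highest CPM, the tested genes nearest the filter were col-68, col-111 and col-116, with 160, 163 and 172 counts over all libraries. The nearest untested ones were col-130, col-12 and col-151, with 106, 77 and 84. The filter used CPM without TMM factors, so the untested col-130 (0.663 CPM) stood above the tested col-116 (0.571 CPM) on the scale used here.

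The col genes differed widely between libraries of the same group. The summed col TPM was 34303, 13955, 492, 26640 and 6163 in wild type replicates 1 to 5. It was 5184, 3365, 7571, 1626 and 3124 in gas-1, and 1030, 622, 5739, 544 and 616 in OE. Wild type therefore held both the highest and the lowest library of the series, 69.7-fold apart, and the groups overlapped. Group means were 16311 ± 14046, 4174 ± 2281 and 1710 ± 2261 TPM, respectively (± SD, n = 5 per group). As a share of all estimated counts, the col genes took 0.0261% to 2.40% per library. In bulk samples of this kind, fewer cells of a type and less RNA per cell cannot be told apart.

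**Figure D1:**
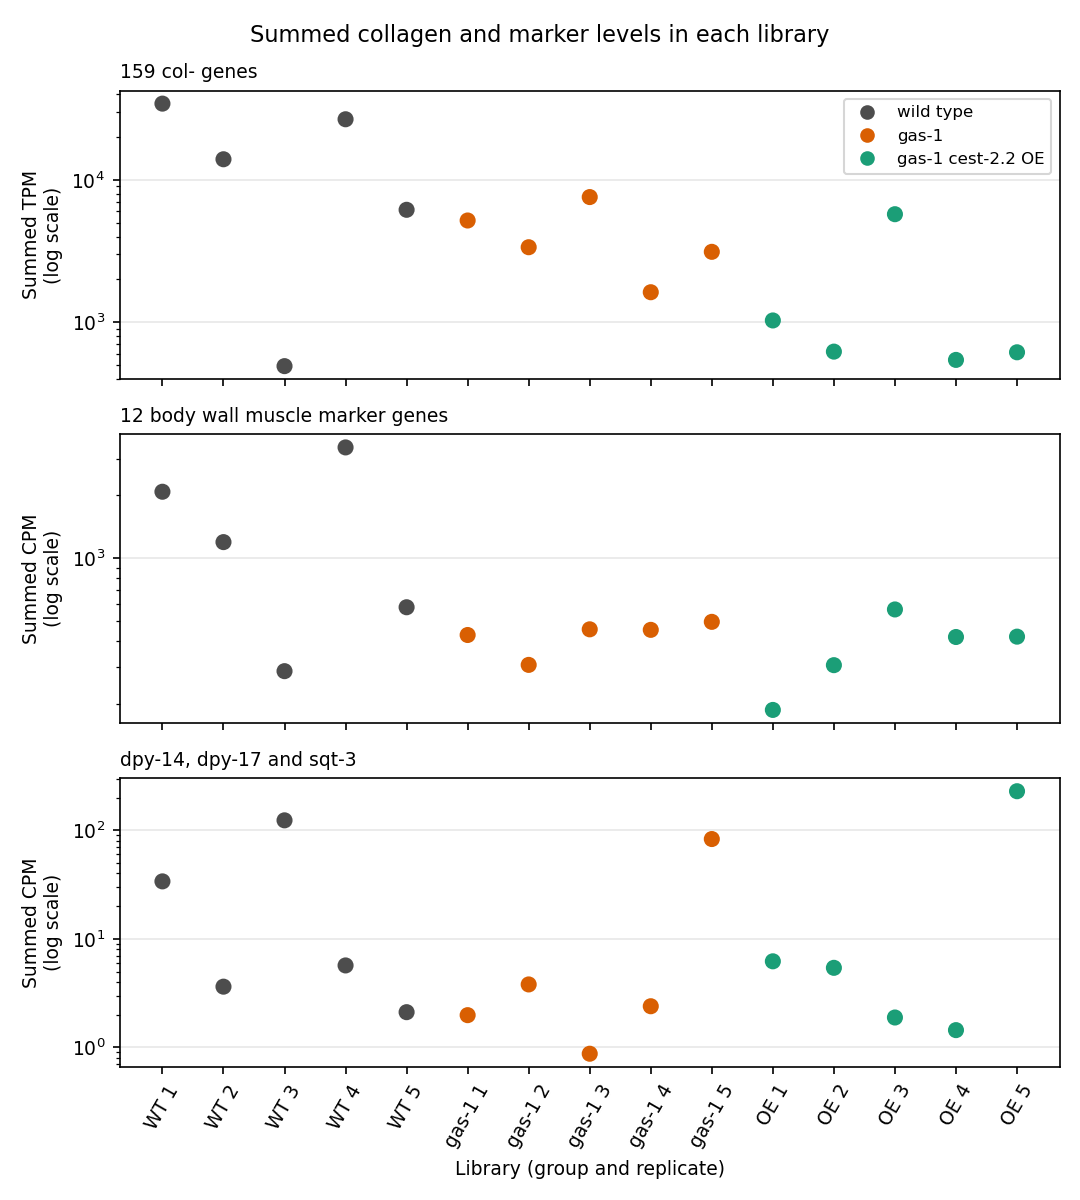
Summed levels in each of the 15 libraries (x axis, group and replicate; WT, wild type; OE, gas-1 with cest-2.2 overexpression) on logarithmic y axes, for the 159 col genes in TPM (top), 12 body wall muscle markers in CPM (middle) and the cuticle collagens dpy-14, dpy-17 and sqt-3 in CPM (bottom). Wild type replicates 1, 2 and 4 are the highest libraries for the col genes and for the muscle markers, whereas dpy-14, dpy-17 and sqt-3 are highest in OE replicate 5, wild type replicate 3 and gas-1 replicate 5.

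Nearly all abundant members followed the same libraries. Among the 25 genes with a mean of at least 10 TPM, wild type replicate 1 was the highest wild type library for 23 and wild type replicate 3 the lowest for 23. In gas-1, replicate 3 was the highest for 23 of the 25 and replicate 4 the lowest for 21. In OE, replicate 3 was the highest for 23. The map of levels shows this as columns that are bright or dark from top to bottom.

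**Figure D2:**
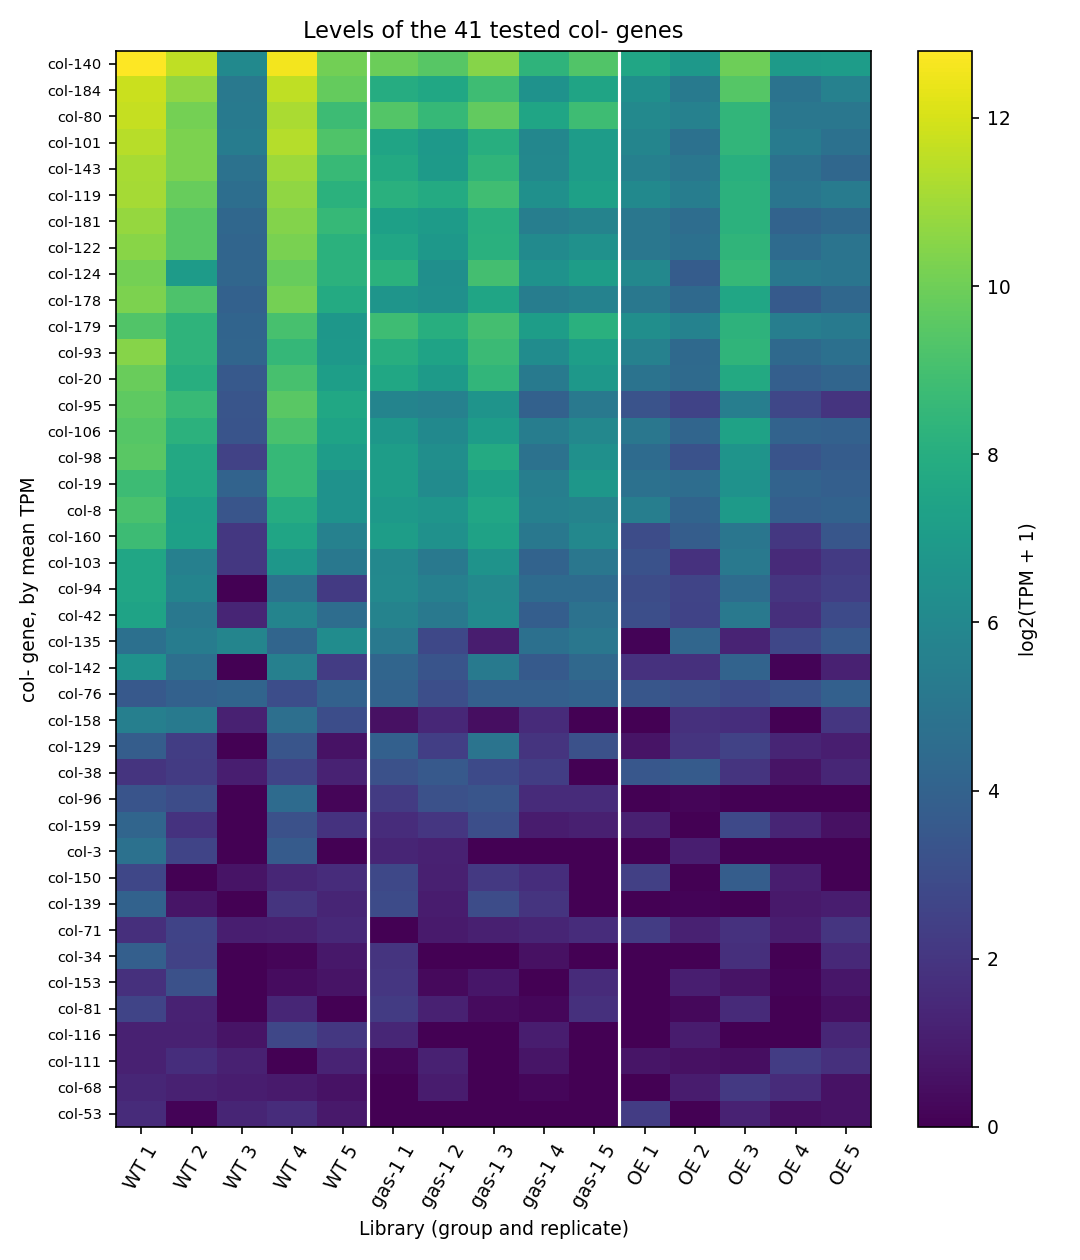
Levels of the 41 tested col genes as log2(TPM + 1) (colour), with genes in rows from the highest to the lowest mean TPM and libraries in columns. Whole columns differ (wild type replicate 1 is bright and wild type replicate 3 dark down to the middle rows), while col-76 and col-135 do not follow this order.

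A pair of genes stood outside that order, and both were singled out after their values were seen. The gene col-76 (II, 8204339 to 8207495) stayed between 6.36 and 16.5 TPM in all 15 libraries, a 2.59-fold range, against a 107-fold range for col-140. The gene col-135 (IV, 15129655 to 15131797) stood at 25.7, 41.1, 56.4, 16.8 and 73.8 TPM in wild type, at 35.3, 5.95, 1.06, 25.5 and 32.6 in gas-1, and at 0.0979, 17.8, 1.4, 5.62 and 10.6 in OE. It was highest in wild type replicates 5 and 3, the wild type libraries with the lowest summed col TPM.

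The 3 libraries highest in col genes were also the 3 highest in body wall muscle markers. Wild type replicates 1, 2 and 4 had summed body wall muscle markers of 2081, 1192 and 3398 CPM, against 286 and 580 in wild type replicates 3 and 5, between 307 and 494 CPM in gas-1 and between 186 and 566 CPM in OE. The muscle myosin gene unc-54 stood at 219, 137.8, 14.1, 362 and 66.3 CPM in wild type replicates 1 to 5, and at 9.76 to 67.0 CPM in the other 10 libraries. In gas-1 the order differed, since gas-1 replicate 3, the highest gas-1 library in col genes, had 454 CPM of muscle markers and was not the highest of its group. In OE, replicate 3 was the highest library of its group both in col genes and in muscle markers (566 CPM). The hypodermis list did not separate these libraries as clearly. Its sums were 98.2, 75.3, 87.8, 102 and 77.9 CPM in wild type, between 39.3 and 55.5 CPM in gas-1 and between 55.6 and 105 CPM in OE. On average, most of this sum came in each group from the regulators lin-26 and nhr-23, described further below. Of the 19 listed genes 7 were tested, and the 2 called lower in gas-1 than in wild type by edgeR were these same regulators. The part of other tissues in the col levels was not tested.

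The first comparison, of gas-1 with wild type, addresses the effect of the fc21 mutation. In the edgeR quasi-likelihood fit, 4 of the 41 tested col genes were lower in gas-1 and 0 were higher at a Benjamini-Hochberg adjusted p under 0.05. Among all 10585 tested genes 8.63% were lower and 12.8% higher, so the share of col genes called lower (9.76%) was close to the background. At an unadjusted p under 0.05, 12 of 41 were lower and 0 higher, against 18.6% and 19.3% of all tested genes. The median log2 fold change was -0.99 for the col genes and -0.11 for all tested genes. Of 19 tested intestine markers, 8 were higher and 0 lower. Errors were wide: the median standard error was 0.94 for the col genes and 0.33 for all, and the median gene-wise biological coefficient of variation was 0.943 and 0.371.

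The abundant gene called lower with the smallest error was col-95 (III, 11703994 to 11705091). It stood at 776, 391, 9.4, 738 and 196 TPM in wild type, and at 54.7, 48.2, 97.6, 14.9 and 34.9 TPM in gas-1. Wild type replicate 3 lay below all 5 gas-1 libraries, and the other 4 wild type libraries lay above them. The log2 fold change was -2.88 ± 0.92 (SE, adjusted p 0.0359).

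The gene col-101 (IV, 325435 to 327020) showed the same arrangement. It stood at 2773, 1230, 40.4, 2676 and 622 TPM in wild type, and at 178.4, 122.3, 264, 59.2 and 133 TPM in gas-1. Again only wild type replicate 3 reached below the gas-1 libraries. The log2 fold change was -3.10 ± 0.94 (adjusted p 0.0288).

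The other 2 genes called lower were weakly expressed. The gene col-158 (V, 11829582 to 11831219) stood at 44.3, 36.3, 1.27, 24.6 and 7.15 TPM in wild type and at 0.501, 1.66, 0.373, 1.97 and 0 TPM in gas-1 (log2 fold change -4.43 ± 1.15, adjusted p 0.0143). It shares 149 exon bases with the noncoding RNA D2023.15 on the opposite strand, and libraries without strand information cannot tell such reads apart. The gene col-53 (I, 5644729 to 5646370) had 16, 1, 31, 13 and 6 counts in wild type and 0 in all 5 gas-1 libraries (adjusted p 0.0216). Taking 3 counts over the gas-1 group as the floor, it was at least 14.2-fold lower there (from pooled counts, without the spread between libraries). It was the only tested col gene whose gas-1 and wild type libraries did not overlap in CPM, against 6.28% of all tested genes that were lower without overlap and 9.62% that were higher.

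Wild type replicates 1, 2 and 4 were left out together because an earlier analysis of these data had found them high in muscle markers. They are also the 3 libraries with the highest summed col TPM, so lower wild type levels without them follow from that choice, and the values are a description, not a test. The fit without them tested 51 col genes, called 0 lower and 3 higher (col-94, col-96 and col-129), and gave a median log2 fold change of 1.14, against 0.03 for all genes. The genes col-95, col-101 and col-158 were then still lower but not called (log2 fold changes -0.54, -0.66 and -1.82). Without wild type replicate 1 or wild type replicate 4 alone, 2 genes were lower, col-53 and col-158, which remained called without any 1 library. The gene col-95 also lost its call without wild type replicate 2 or 5, and both col-95 and col-101 lost it without gas-1 replicate 1, 2, 4 or 5. Without wild type replicate 3, the wild type library with the lowest summed col TPM, 14 of 46 tested col genes were lower. Without OE replicate 3, 11 of 46 were lower. Without OE replicate 2, 7 of 46 were lower, and without OE replicate 4 or 5, 7 of 45 each. The calls of these fits include col-43, col-118 and col-166, which the main fit had not tested. The shares of all tested genes called in these fits are not given here, so the counts are a description only.

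The second comparison, of OE with gas-1, addresses what overexpression of cest-2.2 does in the mutant. By edgeR, the cest-2.2 transcript itself was not called between these groups (log2 fold change 1.11 ± 0.33, adjusted p 0.109). Its levels overlapped, with up to 97.5 CPM in gas-1 and down to 60.9 CPM in OE. In the edgeR fit 1 of 41 col genes was lower in OE and 0 were higher, against 0.954% lower and 0.633% higher among all tested genes. At an unadjusted p under 0.05, 6 were lower and 2 higher, against 6.98% and 8.91% of all tested genes. The median log2 fold change was -1.14 for the col genes and 0.03 for all tested genes, and 33 of the 41 lay below 0. This comparison shares the gas-1 libraries with the first.

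The gene called was col-96 (III, 11705652 to 11706765), a weakly expressed neighbour of col-95 that lies 560 bases away on the opposite strand. It had 71, 81, 0, 128 and 1 counts in wild type, 26, 63, 71, 19 and 14 in gas-1, and 0, 1, 0, 0 and 0 in OE. All gas-1 libraries lay above all OE libraries. With 1 count in OE, col-96 passed the filter only through libraries of the other groups, so this separation is a description only. With 1 count in OE against 193 in gas-1, the ratio of CPM was 0.00412 (95% exact interval 0.000104 to 0.0232, counting error only), and the fitted log2 fold change was -7.21 ± 1.66 (adjusted p 0.0391). The call was lost when wild type replicate 2, gas-1 replicate 1 or 3, or any 1 of the 5 OE libraries was left out. Leaving out either wild type replicate 3 or replicate 2 of gas-1 gave 2 lower col genes. The shares of all tested genes called in those fits are not given here. No other tested col gene separated OE from gas-1 without overlap in CPM, against 2.41% of all tested genes that were lower without overlap and 1.35% that were higher.

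None of the 12 members with the highest mean TPM was called between OE and gas-1. The gene col-140 stood at 959, 701, 1405, 315 and 647 TPM in gas-1 and at 190, 111, 1013, 127 and 134 TPM in OE. In OE, 4 libraries lay below all gas-1 libraries and OE replicate 3 lay inside their range (log2 fold change -1.20 ± 0.87, adjusted p 0.544). Without OE replicate 3 the median log2 fold change over the 46 tested col genes was -2.30, against 0.01 for all tested genes. Of the 46, 26 were lower at an unadjusted p under 0.05 in edgeR, but 0 were called. The share of all tested genes at that p is not given here. OE replicate 3 was the OE library with the highest summed col TPM. Lower OE levels without it therefore follow from that choice, and these values are a description, not a test. The gene col-160 (V, 13200982 to 13202189) stood at 138.4, 88.4, 166, 33.7 and 62.3 TPM in gas-1 and at 6.76, 12.5, 31.4, 3.2 and 9.6 TPM in OE, lower in every OE library on this scale (log2 fold change -2.84 ± 0.86, adjusted p 0.111). DESeq2 and edgeR on these 2 groups alone called it lower.

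In the third comparison, OE was set against wild type. Here 10 of 41 col genes were lower and 0 higher in the edgeR fit (24.4% lower), against 2.24% lower and 7.09% higher among all tested genes. At an unadjusted p under 0.05, 24 of 41 were lower and 0 higher, against 10.2% and 15.6% of all tested genes. The median log2 fold change was -2.32 for the col genes and -0.04 for all tested genes. Of 19 tested intestine markers, 11 were higher and 0 lower, and their part in the col differences was not tested. This comparison shares the wild type libraries with the first and the OE libraries with the second.

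The 10 genes were mostly the abundant ones. Of the 6 with the highest mean TPM, 5 were among them, namely col-140, col-80, col-101, col-143 and col-119, together with col-178, col-95, col-160, col-19 and col-96. For col-140, wild type libraries stood at 7122, 3002, 66.7, 6034 and 1075 TPM and OE libraries between 111 and 1013 TPM. Wild type replicate 3 lay below all OE libraries and the other 4 above them (log2 fold change -3.11 ± 0.93, adjusted p 0.0450). The smallest adjusted p was that of col-95, which stood at 8.7, 4.86, 43.8, 5.63 and 2.78 TPM in OE (log2 fold change -4.68 ± 1.01, adjusted p 0.00979). For the other abundant genes called, log2 fold changes ran from -3.56 ± 0.96 for col-101 to -2.42 ± 0.73 for col-19. The gene col-135 was not called. Its OE libraries did not overlap the wild type libraries in CPM, the only tested col gene of which this held. Among all tested genes 2.23% were lower without overlap and 4.19% were higher. In TPM these groups did overlap for col-135, with 16.8 in the lowest wild type library and 17.8 in the highest OE library.

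**Figure D3:**
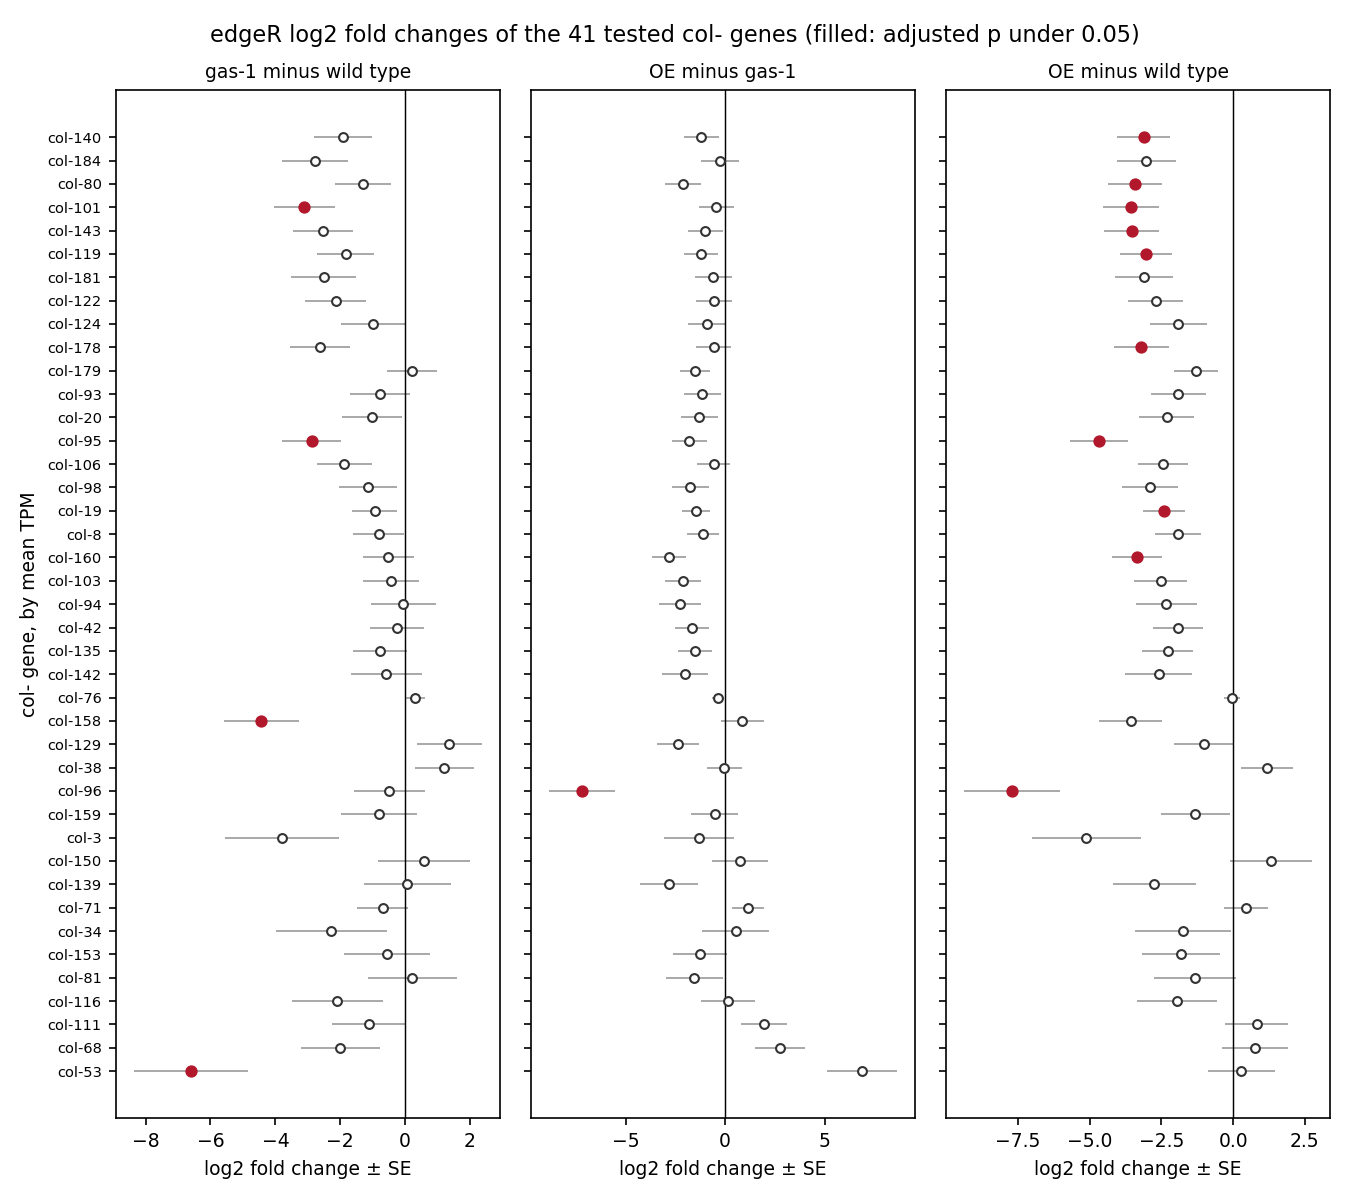
Fitted log2 fold changes (x axis, points) with standard errors (bars) of the 41 tested col genes, ordered from the highest to the lowest mean TPM, in the 3 comparisons (panels; OE, gas-1 with cest-2.2 overexpression). Filled points passed an adjusted p under 0.05: 4 genes in gas-1 minus wild type, 1 in OE minus gas-1 and 10 in OE minus wild type, all below 0.

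The counts of calls again varied with the libraries in the fit. Without wild type replicates 1, 2 and 4, again a choice that takes out the highest col levels, 0 col genes were called in either direction and the median log2 fold change was -0.10. Leaving out a single library gave 2 lower genes without wild type replicate 1, 3 without wild type replicate 4, 5 without OE replicate 1 or 5 and 4 without OE replicate 4. It gave 21 of 46 tested col genes without wild type replicate 3 and 24 of 46 without OE replicate 3. These were the wild type library with the lowest and the OE library with the highest summed col TPM. Larger differences without them therefore follow from that choice. The shares of all tested genes called are not given for the fits of this paragraph, so their counts are a description only. The counts without wild type replicate 3 and without OE replicate 3 both include col-118, col-130 and col-166, which the main fit had not tested. The genes col-118 and col-166 were also among those called without OE replicate 1, 4 or 5. With the 2 groups fitted alone, 1 gene (col-95) was lower. Of 26 other settings, 25 kept the call of col-95. The calls of col-101, col-80, col-143 and col-160 were kept in 19, 18, 18 and 17. Those of col-140 and col-178 were kept in 10 each, and those of col-119 and col-19 in 9 each. The call of col-96 was kept in 23 of 25.

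Because the libraries differed so much in the total, the makeup of that total was described separately. For the 25 genes with a mean of at least 10 TPM, the share of each in the summed col TPM of its library was taken. This description was chosen after the values were seen, and the only test made was a fit given below, which could not decide about single members. Shares of one total are tied, since a larger share of one gene lowers those of the others. Wild type libraries held between 13.6% and 22.6% col-140, gas-1 libraries between 18.5% and 20.8% and OE libraries between 17.6% and 23.3%, a 1.72-fold range between libraries whose totals differed 69.7-fold.

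Other members made up different shares of the total in gas-1 and in wild type. The share was higher in all gas-1 than in all wild type libraries for 8 of the 25 genes (col-42, col-80, col-93, col-94, col-103, col-142, col-160 and col-179) and lower for 5 (col-95, col-101, col-143, col-178 and col-184). Of all 10585 tested genes taken relative to the same total, 0.983% were higher and 0.387% lower without overlap. That background includes genes unrelated to the total, so it is given as a scale only. Without wild type replicates 1, 2 and 4 the counts were 10 and 5, without wild type replicate 3 they were 9 and 7, and relative to col-140 in place of the total they were 5 and 6. In an edgeR fit scaled to the summed col counts, also added after the values were seen, 0 of the 41 col genes were called in each comparison, with 2, 4 and 2 at an unadjusted p under 0.05. That scaling was applied to all tested genes and gave a common biological coefficient of variation of 1.18, against 0.527 in the main fit. With so wide a spread the fit could hardly call any member, and no conclusion is drawn from it.

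The share of col-179 (X, 11201465 to 11202485) was higher in both mutant groups than in wild type. It made up 1.87%, 2.27%, 3.32%, 2.02% and 1.76% of the total in wild type, 8.76%, 7.77%, 6.69%, 8.50% and 8.96% in gas-1, and 7.63%, 8%, 5.40%, 7.86% and 5.95% in OE. Wild type was below both mutant groups in every library, while gas-1 and OE overlapped. In level, col-179 did not differ between gas-1 and wild type beyond its spread (log2 fold change 0.22 ± 0.76, adjusted p 0.858). It lies 997 bases from col-178 on the same strand. The share of col-178 lay between 2.94% and 4.28% in wild type, between 1.58% and 2.54% in gas-1 and between 2.11% and 3.35% in OE.

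Estimated counts of col-178 and col-179 were fractional in 14 and 15 of the 15 libraries. Each has a single transcript, so some reads had been divided between them and other transcripts, and their separate levels depend on that division. Of the 33 tested members with 1 transcript, 17 had whole counts in all libraries within a tolerance of 0.01, col-140 and col-122 among them. Counts were fractional in at least 8 libraries for 8 members, which were col-178, col-179, the neighbours col-93 and col-94 (1198 bases apart on chromosome III), col-119, col-142, col-143 and col-159. The rest were fractional in fewer libraries, among them col-95 and col-96 in 5 each, col-19 in 4 and col-80 in 3.

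The share of col-101 was 8.08%, 8.82%, 8.21%, 10.04% and 10.09% in wild type, 3.44%, 3.63%, 3.48%, 3.64% and 4.25% in gas-1, and 5.34%, 4.17%, 6.06%, 7.18% and 4.31% in OE. Every wild type library lay above every library of both other groups, wild type replicate 3 included. For col-95 the share lay between 1.91% and 3.17% in wild type, between 0.918% and 1.43% in gas-1 and between 0.452% and 1.04% in OE. For col-184 it lay between 7.04% and 14.2% in wild type and between 4.72% and 5.95% in gas-1, and OE, between 5.15% and 11.9%, overlapped both.

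Between OE and gas-1, 2 of the 25 genes were lower in share without overlap and 0 were higher (0.161% and 0.548% of all tested genes), namely col-80 and col-103. In gas-1 the share of col-80 lay between 11.1% and 14.3%, and in OE between 5.37% and 7.86%. For col-103 these ranges were 0.977% to 1.24% and 0.343% to 0.816%. Both had been higher in share in gas-1 than in wild type, and their OE and wild type shares overlapped (col-80 stood at 7.18% to 9.52% in wild type). The gas-1 libraries enter both statements. Between OE and wild type, col-8 and col-179 were higher and col-95, col-101 and col-143 lower without overlap (0.794% and 0.208% of all tested genes).

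**Figure D4:**
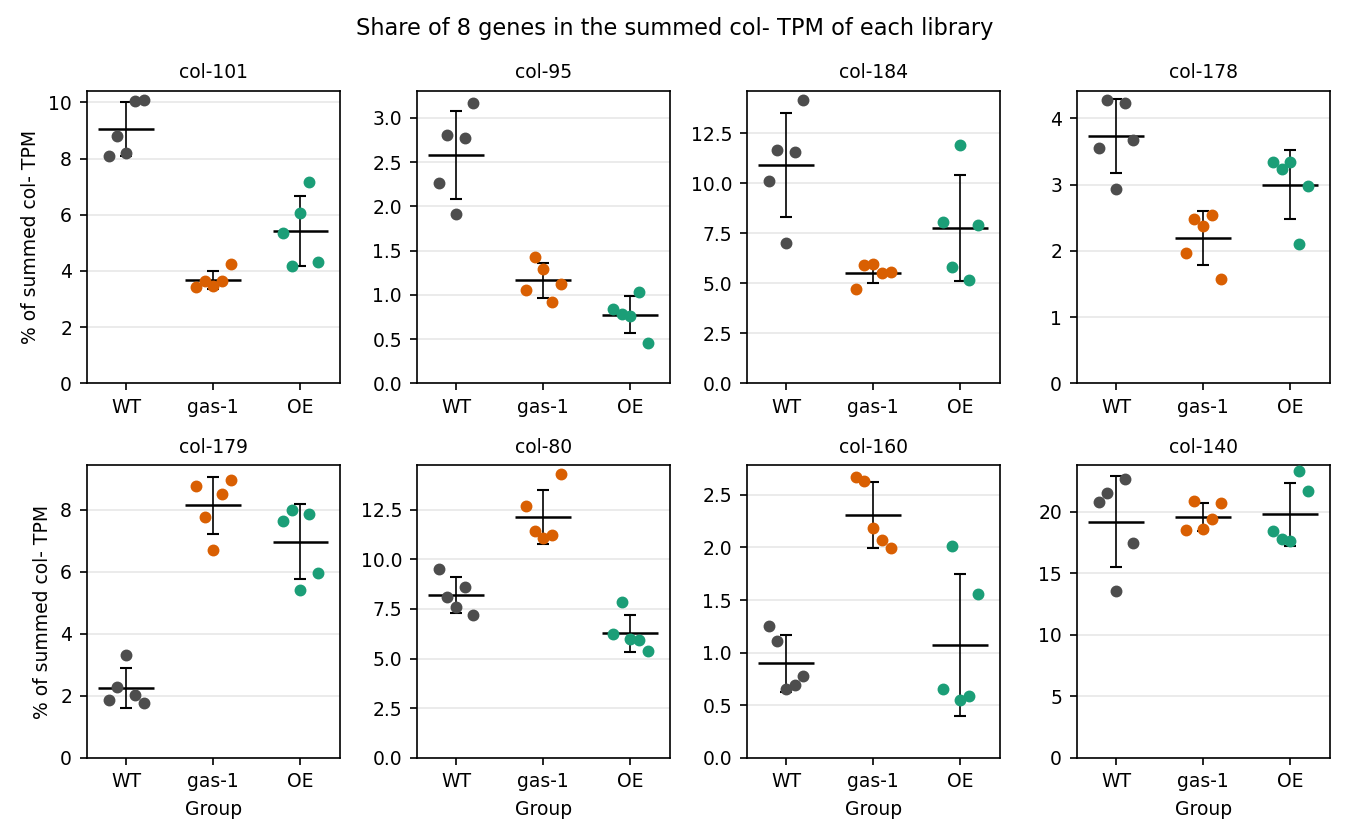
Share of 8 col genes in the summed col TPM of each library (y axis, percent), by group (x axis; WT, wild type; OE, gas-1 with cest-2.2 overexpression), with 1 point per library, the group mean as a line and the SD (n = 5) as a bar. The wild type points of col-101 and col-95 lie above, and those of col-179 below, all points of the other groups, whereas the 3 groups of col-140 overlap.

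Members known for a stage of life or for longevity were mostly below detection. The adult collagen col-19 (X, 421707 to 422691), a widely used marker of the adult epidermis, stood at 437, 205, 15.9, 384 and 91.1 TPM in wild type. It stood at 137, 71.2, 155, 43.7 and 107 TPM in gas-1 and at 26.2, 22.9, 90.1, 16 and 13.5 TPM in OE. It was lower in OE than in wild type (log2 fold change -2.42 ± 0.73, adjusted p 0.0474) and did not differ beyond its spread between gas-1 and wild type (-0.94 ± 0.70, adjusted p 0.342). The adult collagens col-7 and col-62 had at most 6 and 15 counts in any library and were not tested. Of the collagens of the last larval stage, col-49 had 0 counts throughout, col-63 and col-138 were not tested, and col-38 and col-71 were tested without a call, at up to 11.8 and 5.03 TPM.

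None of the 5 collagens linked to long life in studies of this worm passed the filter. The gene col-10 had 218 counts in wild type replicate 1 and 0 in the other 14 libraries. The gene col-144 had 160, 59 and 83 counts in wild type replicates 1, 2 and 4 and at most 4 in any other library, while col-13, col-120 and col-176 had at most 22. The transmembrane collagen col-99 had 8 counts, all in wild type replicate 1.

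The untested members with the highest means came largely from the same 3 libraries. The gene col-166 had 610, 365 and 332 counts in wild type replicates 1, 2 and 4, 12 in gas-1 replicate 4 and 0 elsewhere. The gene col-118 had 324, 407 and 109 counts in those 3 wild type libraries, 1 and 9 in wild type replicates 3 and 5, 7 in OE replicate 5 and 0 elsewhere. The gene col-155 had 161, 191 and 223 counts in them and at most 9 elsewhere, and the 327 counts of col-117 were all in wild type replicate 1. Of the 93 untested genes with any count, 32 had their highest level in wild type replicate 1.

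Cuticle collagens named for a body shape phenotype had another distribution over libraries. Of 20 such genes in the map, 4 were tested (dpy-10, dpy-14, dpy-17 and sqt-3), and 0 were called in any comparison by edgeR or passed an unadjusted p of 0.05. The level of sqt-3, needed for normal body shape, was 8.36, 0.593, 59.1, 3.73 and 0.114 CPM in wild type. In gas-1 it was 30.3 CPM in replicate 5 and at most 1.99 in the others, and in OE it was 130 CPM in replicate 5 and at most 0.377 in the others. The level of dpy-14 was 37.2 CPM in wild type replicate 3, 33.9 in gas-1 replicate 5, 68.7 in OE replicate 5 and 17.2 in wild type replicate 1, and at most 0.698 CPM in the other 11 libraries. Wild type replicate 3 and OE replicate 5, high here, were among the lowest libraries for the col genes and had the highest total estimated counts.

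Genes that process and crosslink collagen were mostly not called. Of 16 tested, 1 was higher and 2 lower in gas-1 than in wild type (12.8% and 8.63% of all tested genes), 0 were called between OE and gas-1, and 1 was lower in OE than in wild type (2.24% of all tested genes), all by edgeR. The beta subunit gene of the collagen prolyl 4-hydroxylase, pdi-2, rose in gas-1, where it measured 628 ± 99.3 CPM against 400.0 ± 134 in wild type (mean ± SD of 5 libraries, log2 fold change 0.65 ± 0.20, adjusted p 0.0306). The procollagen protease gene bli-4 fell (-0.57 ± 0.15, adjusted p 0.0177), as did the cyclophilin gene cyn-9 (-0.86 ± 0.25, adjusted p 0.0243). The catalytic subunit gene dpy-18 stood at 18.3, 14.5, 4.07, 15.6 and 7.3 CPM in wild type and at 1.29 to 4.84 in OE (-1.83 ± 0.49, adjusted p 0.0288). Its highest wild type libraries were those high in col genes. The list median was -0.61 in gas-1 against wild type, with pdi-2 opposite in sign, against -0.11 for all tested genes. It was -0.32 in OE against gas-1 and -0.79 in OE against wild type, against 0.03 and -0.04 for all tested genes.

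Basement membrane genes, whose type IV collagen is made largely by muscle, were measured beside the cuticle collagens. Of 11 tested, 3 were lower in gas-1 than in wild type by edgeR (8.63% of all tested genes), 0 differed between OE and gas-1, and 1 was lower in OE than in wild type (2.24% of all tested genes). The type IV collagen gene let-2 stood at 152, 123, 46.1, 351 and 70.2 CPM in wild type and at 27.9 to 52.6 in gas-1 (log2 fold change -1.90 ± 0.44, adjusted p 0.00839), and emb-9, the other type IV chain, fell by 1.51 ± 0.51 on the log2 scale (adjusted p 0.0449). The SPARC gene ost-1 was lower in both mutant groups (-1.56 ± 0.49, adjusted p 0.0341 in gas-1 and -1.74 ± 0.49, adjusted p 0.0364 in OE). The muscle markers, 6 of 12 of which were lower in gas-1 and 5 in OE than in wild type, were high in the same wild type replicates 1, 2 and 4, and their part in these falls was not tested.

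Of 13 tested regulators of cuticle genes and moulting, 2 were lower in gas-1 than in wild type by edgeR, against 8.63% of all tested genes, 0 were higher, and 0 were called in the other comparisons. A count of this size in a short list is close to that background. The nuclear receptor gene nhr-23, required for moulting, measured 26.1 ± 3.98, 13.3 ± 5.01 and 25.6 ± 5.32 CPM across wild type, gas-1 and OE (mean ± SD of 5 libraries). It fell by 0.97 ± 0.24 on the log2 scale in gas-1 (adjusted p 0.0122). The gene lin-26, a zinc finger factor of epidermal fate, stood at 40.6 ± 5.16, 22.3 ± 6.17 and 29.8 ± 9.13 CPM, and fell by 0.86 ± 0.23 in gas-1 (adjusted p 0.0149). In wild type replicates 1 to 5, nhr-23 stood at 21.7, 22.2, 28.7, 27.4 and 30.6 CPM and lin-26 at 48.2, 42.2, 39.2, 39.5 and 34.0 CPM. Germline and oocyte markers were also lower in gas-1, for 4 of 12 and 7 of 12 tested genes, and their part in these falls was not tested. Of 3 tested cuticlin and apical matrix genes, 0 were called in any comparison by edgeR, and 1 passed an unadjusted p of 0.05, between OE and gas-1.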

How the data were processed

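Per the submitters' processing notes, bcl2fastq 2.20 and kallisto 0.44.0 were used with genome build WBcel235. The annotation release is not given in the sources used here. Per the labels, libraries were made with Smart-seq2 and carry no strand information. For each target, the deposited files give unscaled estimated counts (expected counts), TPM and, as other values, lengths in bases, per the file headers.

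Targets carry integers, which were read as lines of the deposited transcript map counted from 0. Read so, file and annotation (Ensembl release 115) gave equal lengths for 99.95% of 27886 noncoding transcripts, and a shift of the map by 1 line lowered this to 51.83%. Coordinates come from that annotation, and cest-2.2 was matched by gene ID.

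Estimated counts were summed per gene and rounded, and TPM were summed per gene. The edgeR 4.0.16 quasi-likelihood test in R 4.3.3 used TMM factors, the filterByExpr filter at min.count 10 and a joint fit of the 15 libraries (residual df 12). The filter asked for 0.64 CPM, here without TMM factors, in at least 5 libraries. Calls needed an adjusted p (Benjamini-Hochberg, over 10585 genes) below 0.05. Alternatives used DESeq2 1.42.0, limma 3.58.1, other scalings, filters and sets of libraries. The code was tested on simulated data. Nothing says that the samples of a group came from separate cultures, so p-values measure the spread between these samples. Within each group, no 2 libraries agreed within sampling noise.

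Named members were the 12 with the highest mean TPM, up to 12 called per comparison, stage and longevity collagens, the 5 highest untested and those next to the filter, plus up to 4 called genes per list. Other genes are said to be chosen after their values were seen, or are named by a count of groups that do not overlap. Members and lists were chosen with earlier results of these data known. The authors' table of comparisons and protein or promoter sequences were not used here.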

Additional observations from a re-analysis of the deposited data

Results flagged for a closer look

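Of 63 values of a group checked for a library standing apart, 4 did so by Dixon's test on the log2 scale, and chance alone gives about 5%. All 4 were in OE. The summed col TPM of OE replicate 3 was 5740 (rounded), against 544 to 1030 in the other OE libraries. The level of col-122 there was 225 CPM, against 13.1 to 22.5 CPM, and that of col-181 was 192 CPM, against 11.5 to 21.9 CPM. The level of col-96 was 0.0581 CPM in OE replicate 2, which is a single count, and 0 in the other OE libraries.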

How the results depend on the processing

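The numbers of col genes called depended strongly on the tool and the libraries. With all genes of a total count above 0, 134 col genes among 19066 genes were tested, against 41 among 10585 in the main fit. Of those 134, 9 were lower in gas-1 than in wild type and 17 in OE than in wild type. DESeq2, with 41 col genes tested, gave 7 and 16, and between OE and gas-1 2 lower and 1 higher. With limma-voom 0 were lower and 1 higher in gas-1, 0 lower in OE against gas-1 and 2 lower in OE against wild type. On log2(TPM + 1), 0 were lower in OE against gas-1 and 16 against wild type, and on log2(TPM + 0.1) 2 were lower in gas-1. With only the 2 groups compared, 2 of 32 tested col genes were lower in OE against gas-1 and 1 of 35 against wild type. Without wild type replicates 1, 2 and 4, 3 were higher and 0 lower in gas-1, and 0 lower in OE against wild type. Leaving out each library in turn gave 2 to 14, 0 to 2 and 2 to 24 lower genes in the 3 comparisons in the order of the text. The shares of all tested genes called are not given for the fits of this section, so the counts are a description only.

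Equal replicate numbers did not pair the samples over all tested genes, where 0, 1 and 1 of 5 pairs in the 3 comparisons had a correlation of residuals above 0.1. Over the col genes 2, 3 and 3 of 5 pairs did, which does not settle pairing for these members. With the replicate block, 0 col genes were lower in OE against gas-1 and 6 against wild type.

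Some log2 fold changes of single genes changed sign. For gas-1 against wild type without wild type replicates 1, 2 and 4 they were 1.41 for col-19, 0.046 for col-71, 1.55 for col-80, 2.21 for col-93, 6.55 for col-96 (called, adjusted p 0.0481), 1.14 for col-119, 0.40 for col-122, 0.97 for col-124, 0.99 for col-140, 0.23 for col-143, 2.42 for col-160 and 0.084 for col-178. For OE against wild type they were 1.04 for col-93, 0.020 for col-124 and 1.32 for col-179. In gas-1 against wild type, col-93 was at 0.13 with limma-voom. There col-96 was at 2.68 with limma-voom, 0.19 on log2(TPM + 1), 1.05 on log2(TPM + 0.1) and 0.76 with the replicate block, and col-160 was at 0.64, 0.16 and 0.22 with the first 3 of these. In OE against gas-1, col-38 was at 0.048, 0.16 and 0.092 with limma-voom, log2(TPM + 0.1) and the replicate block. In OE against wild type, col-53 was at -0.21, -0.185, -0.57 and -0.23 with limma-voom, both TPM scales and the block. Leaving out each library in turn gave ranges that crossed 0 for 7 results. In gas-1 against wild type these were -1.20 to 0.28 for col-93, -0.89 to 0.67 for col-96, -0.83 to 0.19 for col-160 and -0.092 to 0.65 for col-179. In OE against gas-1 they were -0.51 to 0.28 for col-38 and -2.10 to 0.17 for col-184, and in OE against wild type -0.82 to 0.66 for col-53. The causes were not tested.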
